A study of Mus musculus with 12 samples.

Results

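The transcription factor p53 and 34 genes known as its targets, its regulators or markers of senescence were studied in bleomycin lung injury in mice. Lungs were compared between day 14 and day 21. The 35 genes are known members of the pathway, chosen with earlier results of these data known, and their rows were found by symbol in the expression tables. Each matched 1 of 55491 rows, and all 35 were among the 17909 genes that passed the filter on low counts. All mice were males of the C57BL/6J strain, wild type and 10 weeks old, and each had received 1 oropharyngeal dose of bleomycin, 0.0125 U per mouse or about 0.5 U/kg. Bleomycin breaks DNA and is a standard way to bring on lung injury and fibrosis in mice. Day 21 NP lungs came from mice injected through the retro-orbital vein with nanoparticles, 2 mg in PBS, once daily from day 14 to day 18, 5 doses in all. Poly(lactide-co-glycolide) formed the particle core. The surfactant poly(ethylene-alt-maleic anhydride) covered it, and the mean diameter was 609.22 nm. Day 21 vehicle lungs came from mice given saline instead, and Day 14 lungs were taken before any dose. Each group had 4 libraries, each of polyA RNA from the 5 lobes of a whole lung with the large airway removed. No uninjured lung was used here, so day 14 is an injured starting point and not a healthy baseline.

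As background, p53 is a DNA-binding protein that is made continuously and degraded through the ubiquitin ligase Mdm2, itself a p53 target. DNA damage stabilises the protein, which then binds paired copies of a short motif near its target genes. The targets stop the cell cycle, repair DNA, start apoptosis or change metabolism, and a lasting arrest is called senescence. In the injured lung this programme is best known from alveolar epithelial cells caught between the type 2 and the type 1 state, and from damaged fibroblasts. The p53 protein is controlled mostly after transcription, so its own mRNA is a poor measure of its activity.

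Total counts per library were 24138582 to 28910459 in NP lungs, 28001006 to 36208498 in vehicle lungs and 25706260 to 42714693 in day 14 lungs. Levels below are CPM, counts scaled to a common library size with TMM factors, and 3 counts came to between 0.0718 and 0.125 CPM. Markers of alveolar type 2 cells summed to 29700 to 32400 CPM in NP lungs, 30100 to 35200 CPM in vehicle lungs and 27500 to 31800 CPM in day 14 lungs, so the tissue label held. Among 11 lists of markers, no gene was at 0 in every library of a group. Some libraries (3 of 12) stood apart on such lists, and the labels give no batch. NP replicate 3 had 1040 CPM of 6 neutrophil markers, against 82.6 to 91.8 CPM in the other NP lungs, and NP replicate 2 had 3270 CPM of 5 red blood cell markers, against 179 to 593 CPM. Day 14 replicate 2 had 1410 CPM of 8 immediate early genes, which respond to handling within minutes, and the other day 14 lungs reached at most 746 CPM.

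Some genes of the p53 programme were lower at day 21 than at day 14 in each treatment group. The larger share of the 35 passed no test after adjustment. In NP lungs 15 members fell and 2 rose relative to day 14, and 18 did not pass the test. In vehicle lungs 12 fell, 2 rose and 21 did not pass. The call was a Benjamini-Hochberg adjusted p under 0.05 in edgeR's quasi-likelihood test, adjusted over all 17909 genes. Here and below, passing a test means an adjusted p under 0.05, unless an unadjusted p is named. For reference, 14.7% of all genes tested were called in the NP comparison, 6.16% higher and 8.56% lower, and 10.3% in the vehicle comparison, 3.79% higher and 6.51% lower. At an unadjusted p under 0.05 the members numbered 20 in NP lungs, beside 30.8% of all genes, and 22 in vehicle lungs, beside 27.3%. The median log2 fold change over the 35 members was -0.29 in NP lungs and -0.30 in vehicle lungs, beside 0.01 and 0.00 over all genes tested. Both comparisons use the same 4 day 14 lungs, so they are not independent of each other. In these whole-lung libraries, fewer cells of a type and less of an RNA per cell cannot be told apart.

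**Figure D1:**
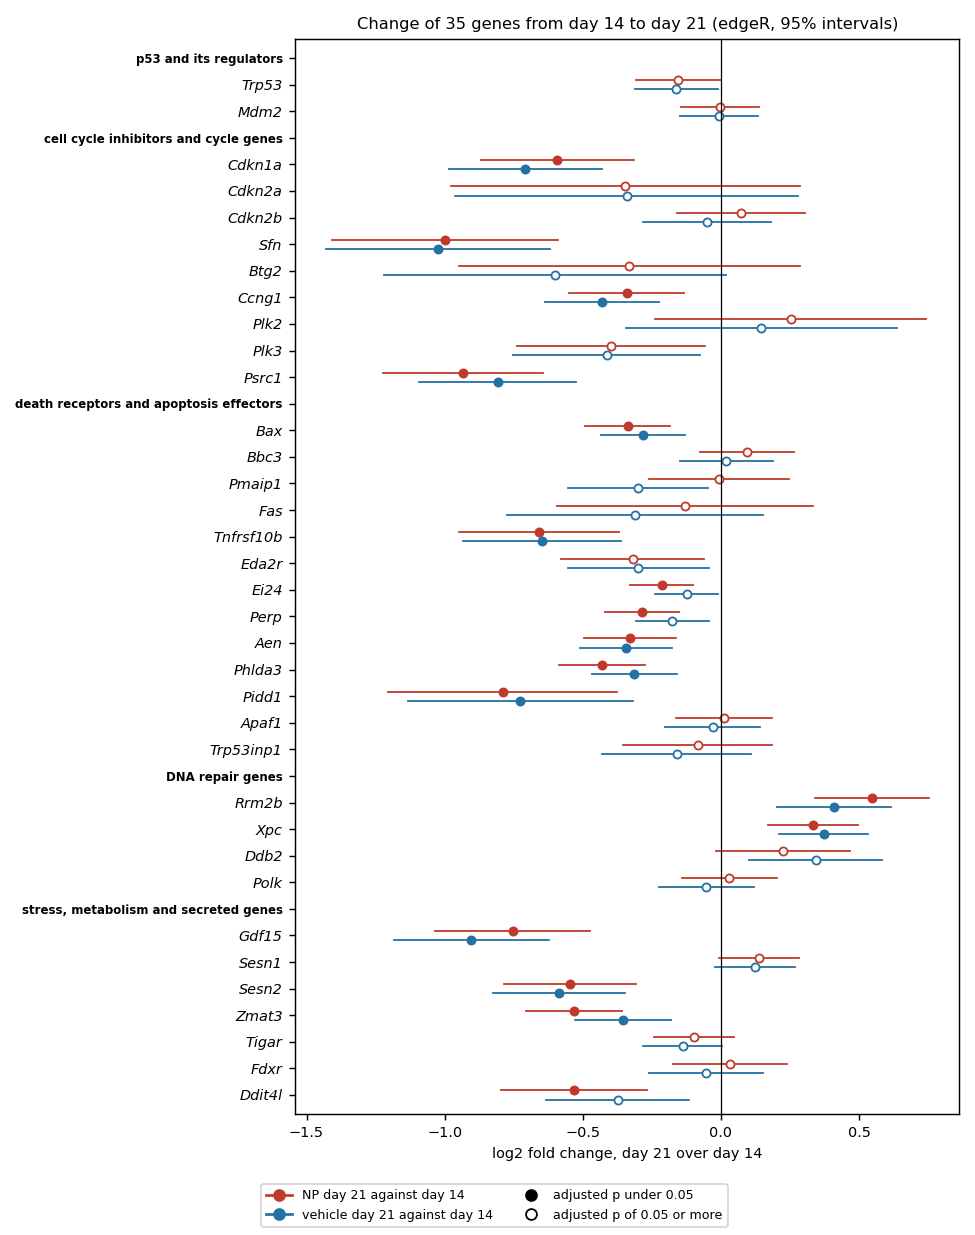
Log2 fold change from day 14 with its 95% confidence interval for each of the 35 members, by role, in NP lungs and vehicle lungs (4 libraries per group, edgeR fit of 12 libraries). Filled symbols mark an adjusted p under 0.05, and Rrm2b and Xpc are the only filled symbols to the right of 0.

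The members' call count in vehicle lungs rested more on single libraries than the count in NP lungs. It was 14 over all libraries and dropped to 8 without vehicle replicate 1, to 9 without vehicle replicate 3 and to 8 without day 14 replicate 3. Calls over all genes dropped in the same fits too, from 1845 to 744, 866 and 719, so the loss was not particular to the members. Over all genes the NP calls dropped from 2636 to 1384 without NP replicate 4. The members' count in NP lungs was 17 and lay between 13, without NP replicate 4, and 17 when each library was left out in turn. It was 17 without NP replicate 3, 16 without NP replicate 2 and 17 without day 14 replicate 2, the libraries that stood apart on marker lists. Cdkn1a, Sfn, Psrc1, Tnfrsf10b, Xpc, Gdf15 and Sesn2 were called in both comparisons under each of the 19 alternatives run.

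Because p53 acts through its motif, the promoter windows of the members are shown for those whose window held a half-site. RefSeq windows on GRCm38.p6, from 250 bases before to 50 bases after a start site, existed for 27 of the 35 members. Those with none were Pmaip1, Tnfrsf10b, Perp, Xpc, Ddb2, Rrm2b, Zmat3 and Trp53inp1. The 10-base p53 half-site consensus, which is its own reverse complement so that 1 scan covers both strands, was found in a window of 10 of the 27 members. Across RefSeq, 2582 of 27025 genes with a window, 9.55%, held one, and 8.36% of single windows did. A match of letters is a description and says nothing of binding in these lungs. A full 20-base site, a pair of half-sites with no gap and at most 1 mismatch, was in 29 of 32851 windows, 0.0883%, and 2 of these belonged to members, Cdkn1a and Ccng1. The Cdkn1a window belongs to the upstream of the gene's start sites, 2790 bases before the other, at chr17:29090729-29091028 on the plus strand. The Ccng1 window lies at chr11:40755237-40755536 on the minus strand. Capitals mark the 20-base site and any other half-site.
Cdkn1a: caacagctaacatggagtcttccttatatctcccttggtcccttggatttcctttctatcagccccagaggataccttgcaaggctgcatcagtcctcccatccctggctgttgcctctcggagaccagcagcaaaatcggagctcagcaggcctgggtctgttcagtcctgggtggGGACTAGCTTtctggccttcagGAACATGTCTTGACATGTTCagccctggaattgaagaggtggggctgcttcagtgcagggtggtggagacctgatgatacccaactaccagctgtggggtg
Ccng1: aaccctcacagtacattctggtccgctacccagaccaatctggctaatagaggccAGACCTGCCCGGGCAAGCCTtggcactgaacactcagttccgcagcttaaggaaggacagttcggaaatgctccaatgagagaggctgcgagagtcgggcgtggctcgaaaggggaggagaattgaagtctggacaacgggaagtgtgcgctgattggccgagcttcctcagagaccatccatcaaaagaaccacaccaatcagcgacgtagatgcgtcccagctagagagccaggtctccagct
In the other 8 members the half-site is shown in capitals with 10 bases on either side, first for those lower at day 21 in at least 1 comparison. The stretches lie at chr7:45467080-45467109 on the minus strand for Bax, chr7:78895927-78895956 on the plus strand for Aen, chr9:36797325-36797354 on the minus strand for Ei24 and chr3:137623572-137623601 on the plus strand for Ddit4l.
Bax: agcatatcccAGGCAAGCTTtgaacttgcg
Aen: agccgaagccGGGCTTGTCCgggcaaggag
Ei24: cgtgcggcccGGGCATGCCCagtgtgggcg
Ddit4l: caactcccagGGGCTTGCCTgggcccctgc
The members that passed no test follow, at chr10:117710925-117710954 on the minus strand for Mdm2, chr11:69580274-69580303 on the plus strand for Trp53, chr10:41887256-41887285 on the plus strand for Sesn1 and chr13:96519399-96519428 on the minus strand for Polk.
Mdm2: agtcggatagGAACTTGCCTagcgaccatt
Trp53: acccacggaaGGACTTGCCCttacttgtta
Sesn1: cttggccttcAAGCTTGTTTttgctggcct
Polk: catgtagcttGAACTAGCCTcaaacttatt
Of the 12 members with a window that fell, 6 held a half-site, and of the 15 that passed no test, 4 did. No test was made of that difference.

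Per transcript length, in TPM, Cdkn1a was the most abundant member at day 14, with 193 ± 25.0 TPM (SD, n = 4), followed by Bax with 160 ± 10.1 TPM and Ccng1 with 148 ± 21.1 TPM. Bax and Ccng1 lay within their spread of each other. Cdkn2a was the least abundant, with 3.51 ± 0.824 TPM, and lay within the spread of Pidd1 at 3.76 ± 1.17 TPM. At day 21 Cdkn1a had 131 ± 23.2 TPM in NP lungs and 120 ± 11.3 TPM in vehicle lungs, beside 130 ± 10.3 TPM and 134 ± 3.26 TPM of Bax.

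Trp53 and Mdm2, the factor and its ligase, passed no test after adjustment. Trp53 (chr11:69580359-69591873, GENCODE M21 on GRCm38, as for all gene positions here) read 43.2, 45.6, 42.7 and 40.0 CPM in NP lungs, 44.2, 44.6, 40.2 and 42.0 CPM in vehicle lungs and 43.3, 54.6, 46.2 and 47.2 CPM in day 14 lungs. The groups overlapped, and the log2 fold change was -0.16 in NP lungs (SE 0.0708, adjusted p = 0.151) and -0.16 in vehicle lungs (SE 0.0705, adjusted p = 0.156). The 95% interval for Trp53 left out 0 narrowly, at -0.308 to -0.004 in NP lungs and -0.313 to -0.010 in vehicle lungs. Its unadjusted p from edgeR's quasi-likelihood test was 0.0446 in NP lungs and 0.038 in vehicle lungs. Mdm2 (chr10:117688875-117710758) read 89.7, 78.4, 79.4 and 80.9 CPM in NP lungs, 87.5, 82.5, 84.6 and 72.6 CPM in vehicle lungs and 83.0, 77.1, 83.1 and 85.9 CPM in day 14 lungs. All 3 groups covered the same range, and the 95% interval of its log2 fold change from day 14 was -0.14 to 0.14 in NP lungs and -0.15 to 0.13 in vehicle lungs.

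Among the 9 genes that act on the cell cycle, 4 fell in both comparisons and none rose. Cdkn1a (chr17:29090976-29100727) encodes p21, the cyclin-dependent kinase inhibitor through which p53 arrests cells. Its level was 139, 128, 169 and 109 CPM in NP lungs, 107, 131, 124 and 141 CPM in vehicle lungs and 223, 175, 231 and 192 CPM in day 14 lungs. Every day 21 lung was below every day 14 lung, and the nearest, NP replicate 3 and day 14 replicate 2, differed little. NP lungs held 0.664 of the day 14 level (95% interval 0.548 to 0.804, adjusted p = 0.00993) and vehicle lungs 0.612 (0.505 to 0.742, adjusted p = 0.00618). The Cdkn1a exons share 273 of 3553 bases with AC167363.2, a gene model on the other strand that awaits experimental support. That model held 382 counts in all against 56502 of Cdkn1a. Bax shares 192 of 1576 exon bases with Gm45808 on the same strand, which held 59 counts against 21614. Rrm2b and Ei24 overlap models on the other strand with 362 and 0 counts. Plk3, Tigar and Ddb2, which passed no test, overlap other genes too, and for Plk3 the other gene held 2207 counts against 4203.

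Sfn (chr4:133600556-133602168) encodes 14-3-3 sigma, an epithelial protein that holds cells before mitosis, and had the lowest log2 fold change of the members in both comparisons, within the standard errors of Psrc1 in NP lungs and Gdf15 in vehicle lungs. It stood at 18.2, 18.0, 27.4 and 14.1 CPM in NP lungs, 17.0, 23.5, 15.5 and 20.3 CPM in vehicle lungs and 36.5, 41.7, 44.3 and 32.9 CPM in day 14 lungs. The day 21 and day 14 groups did not overlap, with a log2 fold change of -0.999 in NP lungs (SE 0.187, adjusted p = 0.00566) and -1.03 in vehicle lungs (SE 0.186, adjusted p = 0.00731). Psrc1 (chr3:108383839-108388231), a p53-responsive protein of the mitotic spindle, read 12.8, 8.76, 12.2 and 9.85 CPM in NP lungs, 9.23, 14.4, 12.1 and 11.8 CPM in vehicle lungs and 20.5, 22.3, 21.4 and 19.2 CPM in day 14 lungs. It too was lower in every day 21 lung, by a log2 fold change of -0.93 in NP lungs (SE 0.135, adjusted p = 0.00114) and -0.81 in vehicle lungs (SE 0.133, adjusted p = 0.00352).

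Ccng1 (chr11:40748552-40755311), which encodes cyclin G1, a partner of Mdm2 and a phosphatase, carries the other 20-base site shown above. It read 273, 252, 281 and 228 CPM in NP lungs, 228, 235, 243 and 266 CPM in vehicle lungs and 353, 262, 342 and 352 CPM in day 14 lungs. Day 14 replicate 2 lay among the day 21 lungs, and the other 3 day 14 lungs were above all of them. The log2 fold change was -0.34 in NP lungs (SE 0.0969, adjusted p = 0.032) and -0.43 in vehicle lungs (SE 0.097, adjusted p = 0.0147). In NP lungs the call was lost without NP replicate 2 or 4 or day 14 replicate 1, 3 or 4 (adjusted p 0.0694 to 0.0982), in a fit of the 8 libraries compared (0.0716) and on both TPM scales (0.06 and 0.0596), and in vehicle lungs without vehicle replicate 1 or day 14 replicate 3 (0.0564 and 0.0523).

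The classical senescence locus passed no test. Cdkn2a (chr4:89274471-89294653), which encodes p16Ink4a and p19Arf from separate start sites that the gene-level counts do not separate, read 1.27, 0.83, 1.80 and 0.688 CPM in NP lungs, 0.986, 1.57, 1.10 and 0.942 CPM in vehicle lungs and 1.65, 1.85, 1.30 and 1.01 CPM in day 14 lungs. These rest on 19 to 69 counts per library, and the groups overlapped. The 95% interval of the fold change from day 14 was 0.508 to 1.22 in NP lungs and 0.513 to 1.21 in vehicle lungs, so a fall as large as that of Cdkn1a was within what this depth allows. Cdkn2b, the neighbouring gene for the inhibitor p15Ink4b, read 26.4, 29.2, 33.1 and 22.5 CPM in NP lungs, 24.0, 29.9, 23.8 and 24.4 CPM in vehicle lungs and 26.9, 28.8, 25.0 and 24.9 CPM in day 14 lungs. Its interval of 0.895 to 1.24 in NP lungs and 0.823 to 1.13 in vehicle lungs did not reach the Cdkn1a fold changes of 0.664 and 0.612.

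Btg2, Plk2 and Plk3 passed no test. Btg2, an antiproliferative gene that is also induced within minutes by handling, ranged from 148 to 214 CPM in NP lungs, 131 to 175 CPM in vehicle lungs and 148 to 389 CPM in day 14 lungs. Its highest value, 389 CPM, was in day 14 replicate 2, the lung with 1410 CPM of immediate early genes, and the other day 14 lungs had 148 to 191 CPM. Plk2, a stress-induced polo-like kinase, was also highest there among day 14 lungs, at 168 CPM, while the others had 72.9 to 116 CPM. NP replicate 1 had nearly as much Plk2, 162 CPM, with 691 CPM of immediate early genes. The part of handling in these values was not tested. Plk3, a related kinase, had a log2 fold change of -0.40 in NP lungs (adjusted p = 0.106) and -0.41 in vehicle lungs (adjusted p = 0.106).

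**Figure D2:**
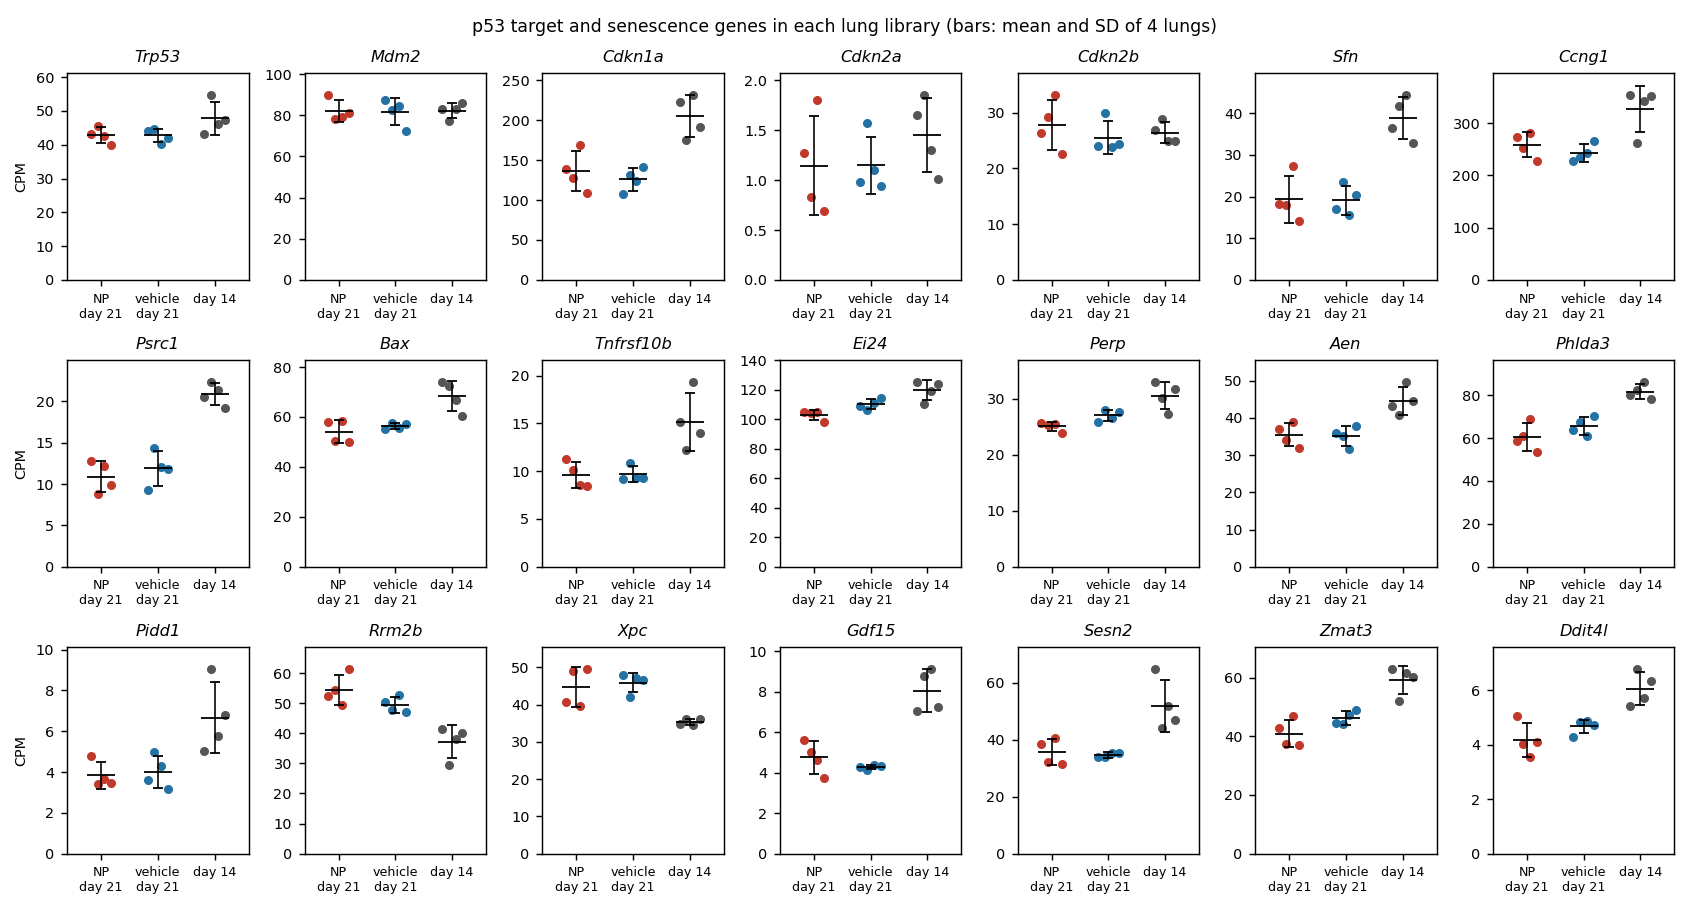
CPM in each of the 12 libraries for the members given in full (points), with the mean and SD of 4 libraries (bars), NP lungs, vehicle lungs and day 14 lungs running left to right; each axis starts at 0. Cdkn1a, Sfn, Psrc1 and Gdf15 lie lower in all 8 day 21 libraries than in any day 14 library, Rrm2b and Xpc lie higher, and Mdm2 overlaps in all groups.

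Of the 13 members that act in apoptosis, 7 fell in NP lungs and 5 of these also in vehicle lungs, and none rose. Tnfrsf10b (chr14:69767472-69784411), the mouse death receptor for the ligand TRAIL, had 11.3, 10.1, 8.55 and 8.40 CPM in NP lungs, 9.23, 10.9, 9.26 and 9.30 CPM in vehicle lungs and 15.1, 12.2, 19.3 and 14.0 CPM in day 14 lungs. All day 21 lungs were below all day 14 lungs, at log2 fold changes of -0.66 in NP lungs (SE 0.135, adjusted p = 0.0067) and -0.65 in vehicle lungs (SE 0.134, adjusted p = 0.0103). Pidd1, which assembles a caspase-2 platform after damage, read 4.78, 3.40, 3.67 and 3.48 CPM in NP lungs, 3.59, 4.97, 4.31 and 3.16 CPM in vehicle lungs and 5.05, 9.04, 5.77 and 6.80 CPM in day 14 lungs. The groups almost touched, at vehicle replicate 2 and day 14 replicate 1. Its log2 fold change was -0.79 in NP lungs (adjusted p = 0.0165) and -0.73 in vehicle lungs (adjusted p = 0.0291). The NP call was lost without NP replicate 4 (0.0532). The vehicle call was lost without vehicle replicate 1, 3 or 4 or day 14 replicate 2, 3 or 4 (0.0523 to 0.0948) and on both TPM scales.

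Bax (chr7:45461697-45466898), the pore-forming protein that opens mitochondria, read 57.8, 50.5, 58.4 and 49.96 CPM in NP lungs, 55.1, 57.5, 55.4 and 57.0 CPM in vehicle lungs and 73.9, 72.5, 66.7 and 60.5 CPM in day 14 lungs. All day 21 lungs were below the lowest day 14 lung, with a log2 fold change of -0.34 in NP lungs (SE 0.0718, adjusted p = 0.00818) and -0.28 in vehicle lungs (SE 0.0715, adjusted p = 0.0252). The vehicle call was lost without vehicle replicate 1 or 3 or day 14 replicate 1 or 3 (0.0577 to 0.0817). Phlda3, a p53-induced brake on the survival kinase Akt, had 58.8, 61.0, 68.7 and 53.5 CPM in NP lungs, 63.7, 67.7, 60.9 and 70.3 CPM in vehicle lungs and 80.0, 82.3, 86.0 and 78.0 CPM in day 14 lungs. All day 21 lungs lay below all day 14 lungs, at log2 fold changes of -0.43 in NP lungs (adjusted p = 0.00249) and -0.31 in vehicle lungs (adjusted p = 0.0167). Without vehicle replicate 1 or 3 or day 14 replicate 3 the vehicle call of Phlda3 was lost (0.0592 to 0.0617). Aen, a p53-induced nuclease, read 37.0, 34.2, 39.0 and 31.9 CPM in NP lungs, 35.9, 35.2, 31.7 and 37.9 CPM in vehicle lungs and 43.3, 40.9, 49.6 and 44.6 CPM in day 14 lungs. These groups did not overlap either, and the log2 fold change was -0.33 in NP lungs (adjusted p = 0.0141) and -0.34 in vehicle lungs (adjusted p = 0.0149). Aen lost its NP call without NP replicate 4 or day 14 replicate 3 (0.05 and 0.0512) and its vehicle call without vehicle replicate 3 or day 14 replicate 3 (0.0538 and 0.0573).

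Ei24 and Perp passed the test against day 14 in NP lungs and not in vehicle lungs. Ei24, a membrane protein of the endoplasmic reticulum induced by p53, read 105, 104, 105 and 98.0 CPM in NP lungs, 109, 106, 111 and 114 CPM in vehicle lungs and 125, 110, 119 and 124 CPM in day 14 lungs. Every NP lung was below every vehicle and every day 14 lung, though NP replicate 1 and vehicle replicate 2 nearly met, at 105.5 and 105.8 CPM. Vehicle lungs overlapped day 14 lungs. The log2 fold change from day 14 was -0.21 in NP lungs (SE 0.0537, adjusted p = 0.0181) and -0.12 in vehicle lungs (SE 0.0535, adjusted p = 0.152). The NP call was lost without NP replicate 4 or day 14 replicate 1 (0.0623 and 0.0517), in a fit of the 8 libraries compared (0.0581) and on both TPM scales (0.0527 and 0.0534). Without day 14 replicate 2 vehicle lungs passed as well (0.044). Perp, a desmosome and tetraspan protein of epithelia, read 25.7, 25.2, 25.4 and 23.9 CPM in NP lungs, 25.9, 28.0, 26.6 and 27.6 CPM in vehicle lungs and 32.9, 30.1, 27.3 and 31.7 CPM in day 14 lungs. NP lungs were again below all vehicle lungs, though NP replicate 1 and vehicle replicate 1 nearly met. The log2 fold change was -0.29 in NP lungs (SE 0.062, adjusted p = 0.00905) and -0.18 in vehicle lungs (SE 0.0615, adjusted p = 0.0818), and without day 14 replicate 3 vehicle lungs passed too (0.0498). The difference between NP and vehicle lungs passed no test for Ei24 or Perp (adjusted p = 0.999 for each).

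The other 6 genes of this role passed no test. Bbc3 and Pmaip1, which encode the BH3-only proteins Puma and Noxa, had log2 fold changes of 0.09 and -0.01 in NP lungs and of 0.02 and -0.30 in vehicle lungs. Fas and Eda2r, receptors of the TNF family, had -0.13 and -0.32 in NP lungs and -0.31 and -0.30 in vehicle lungs. Apaf1, the scaffold of the apoptosome, had 0.01 in NP lungs and -0.03 in vehicle lungs, and Trp53inp1, a stress protein that acts with p53, had -0.08 and -0.16. Fas was highest, at 58.8 CPM, in NP replicate 3, the lung with 1040 CPM of neutrophil markers, and the other NP lungs had 31.0 to 36.1 CPM. Day 14 replicate 1 came next, at 55.7 CPM of Fas, with 36.8 CPM of neutrophil markers. The part of neutrophils in these values was not tested.

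Of 4 repair genes, Rrm2b and Xpc rose in both comparisons, and Ddb2 and Polk passed no test. Rrm2b (chr15:37923952-37961318) encodes p53R2, the subunit of ribonucleotide reductase that supplies nucleotides to cells that are not dividing. It read 52.5, 54.5, 49.3 and 61.3 CPM in NP lungs, 50.4, 47.6, 52.7 and 47.1 CPM in vehicle lungs and 41.3, 29.3, 38.1 and 40.2 CPM in day 14 lungs. Every day 21 lung was above every day 14 lung, at 1.46 times the day 14 level in NP lungs (95% interval 1.27 to 1.69, adjusted p = 0.00332) and 1.33 times in vehicle lungs (1.15 to 1.53, adjusted p = 0.0185). The vehicle call was lost without vehicle replicate 1 or 3 or day 14 replicate 3 (0.0518 to 0.0584) and on both TPM scales. Xpc (chr6:91489305-91515888), the damage sensor of nucleotide excision repair, had 40.6, 49.0, 39.6 and 49.5 CPM in NP lungs, 47.8, 42.1, 47.2 and 46.5 CPM in vehicle lungs and 34.9, 36.1, 34.6 and 36.1 CPM in day 14 lungs. It was higher in each of the 8 day 21 lungs, by log2 fold changes of 0.33 in NP lungs (SE 0.0753, adjusted p = 0.0112) and 0.37 in vehicle lungs (SE 0.075, adjusted p = 0.00932). Ddb2, the partner of Xpc in damage recognition in mammals, passed no test, with a log2 fold change of 0.23 in NP lungs (adjusted p = 0.196) and 0.34 in vehicle lungs (adjusted p = 0.0662). Its value is uncertain, because 652 of its 2736 exon bases overlap exons of Acp2 on the other strand and the strand setting of the counting was not given in the sources used here. Polk, a polymerase that copies past damage, had 0.03 in NP lungs and -0.05 in vehicle lungs.

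Among the 7 stress, metabolism and secreted genes, 4 fell in NP lungs and 3 of these also in vehicle lungs. Gdf15 (chr8:70629393-70632456), a secreted stress hormone, read 5.64, 5.02, 4.65 and 3.73 CPM in NP lungs, 4.30, 4.15, 4.40 and 4.31 CPM in vehicle lungs and 7.04, 8.78, 9.12 and 7.24 CPM in day 14 lungs. The lowest day 14 lung was above the highest day 21 lung, and vehicle lungs were close together, at 4.29 ± 0.0999 CPM (SD, n = 4). NP lungs held 0.593 of the day 14 level (95% interval 0.488 to 0.721, adjusted p = 0.00301) and vehicle lungs 0.535 (0.441 to 0.649, adjusted p = 0.00232). Sesn2 (chr4:132492032-132510501), a stress sensor that restrains mTORC1, had 38.4, 32.1, 40.6 and 31.4 CPM in NP lungs, 33.8, 33.9, 35.4 and 35.5 CPM in vehicle lungs and 64.8, 44.1, 52.0 and 47.0 CPM in day 14 lungs. It was lower in all day 21 lungs, by log2 fold changes of -0.55 in NP lungs (SE 0.112, adjusted p = 0.00684) and -0.59 in vehicle lungs (SE 0.111, adjusted p = 0.00709). Zmat3 (chr3:32334792-32366014), an RNA-binding protein induced by p53, read 42.7, 37.4, 46.8 and 36.9 CPM in NP lungs, 44.5, 44.2, 47.4 and 49.1 CPM in vehicle lungs and 62.9, 52.1, 61.7 and 60.1 CPM in day 14 lungs. Again no day 21 lung reached a day 14 lung, at log2 fold changes of -0.53 in NP lungs (SE 0.0815, adjusted p = 0.00158) and -0.35 in vehicle lungs (SE 0.0809, adjusted p = 0.0158). The vehicle call of Zmat3 was lost without vehicle replicate 1 or day 14 replicate 3 (0.0569 and 0.0559).

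Ddit4l, an inhibitor of mTORC1, depended on the scale. It read 5.06, 4.03, 3.55 and 4.09 CPM in NP lungs, 4.30, 4.82, 4.86 and 4.71 CPM in vehicle lungs and 5.43, 6.78, 5.73 and 6.33 CPM in day 14 lungs, so no day 21 lung reached a day 14 lung. The log2 fold change from counts was -0.53 in NP lungs (SE 0.123, adjusted p = 0.0122) and -0.37 in vehicle lungs (SE 0.121, adjusted p = 0.0628), and DESeq2 called the vehicle difference (adjusted p = 0.039). In TPM, which divides by the length of the transcripts assigned, the means were 3.65 ± 1.07 in NP lungs, 5.09 ± 1.27 in vehicle lungs and 4.95 ± 0.195 in day 14 lungs (SD, n = 4), and the NP call was lost with limma (adjusted p = 0.167 with a pseudocount of 1). Sesn1, the related sestrin, Tigar, which diverts glucose from glycolysis, and Fdxr, a mitochondrial electron carrier, passed no test, with log2 fold changes of 0.14, -0.10 and 0.03 in NP lungs and 0.12, -0.14 and -0.05 in vehicle lungs.

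**Figure D3:**
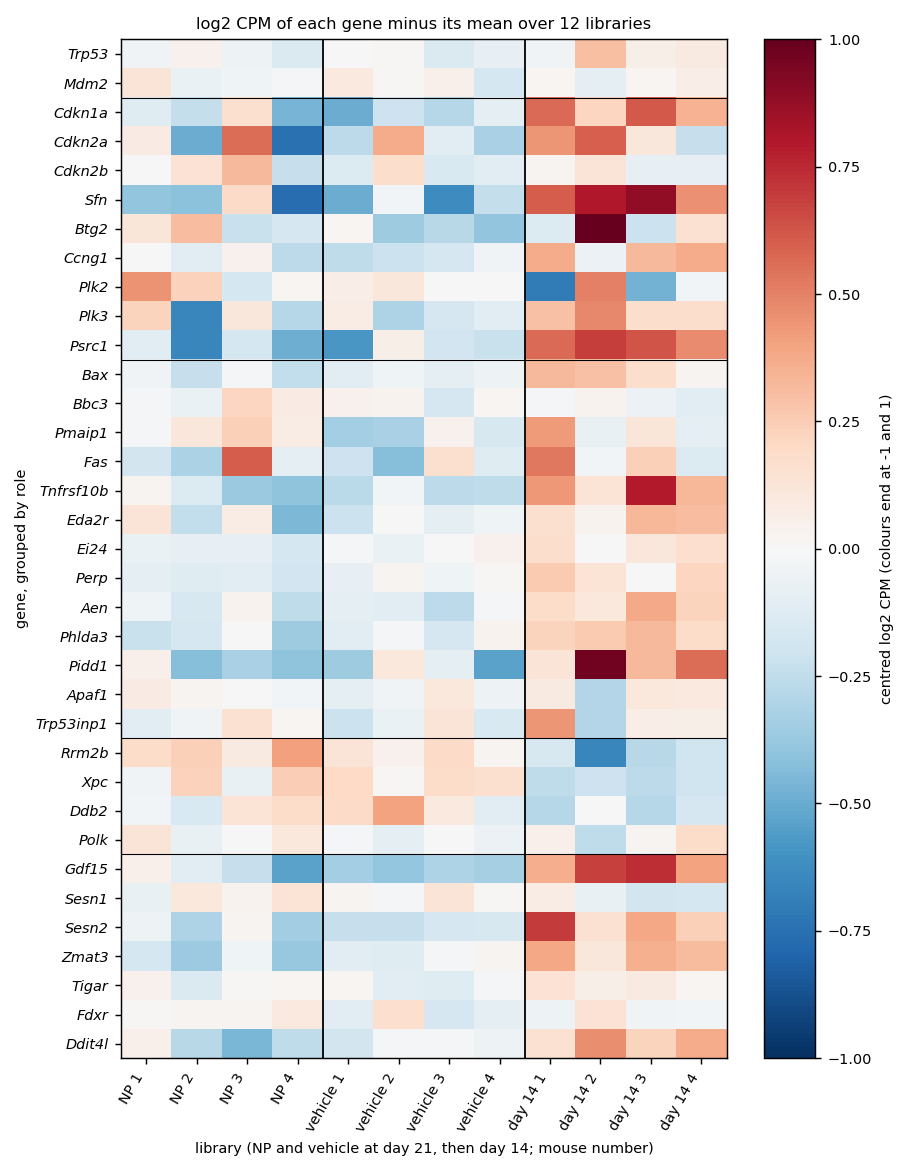
Log2 CPM of the 35 members (rows, by role) in the 12 libraries (columns, NP lungs left, then vehicle lungs and day 14 lungs), each row centred on its mean over the libraries. The 4 day 14 columns are higher in most rows and lower in Rrm2b and Xpc, and Btg2 in day 14 replicate 2 stands out.

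Averaged over the 35 members, the centred log2 level was -0.00, -0.13, 0.02 and -0.18 in NP lungs, -0.13, -0.05, -0.09 and -0.11 in vehicle lungs and 0.19, 0.18, 0.16 and 0.13 in day 14 lungs. NP lungs were spread more widely than vehicle lungs, and NP replicate 4 held the lowest value of the 12 libraries for 14 members. The highest value fell in a day 14 library for 26 members. The same counts were not made over all genes, so they have no share to be read against. Groups did not overlap for 16 members between NP and day 14 lungs, 14 of them below and 2 above, where 19.0% of all genes tested did not overlap, 10.6% below and 8.47% above. Between vehicle and day 14 lungs 17 members did not overlap, 15 below and 2 above, beside 17.9% of all genes, 10.7% below and 7.20% above.

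Some markers of other cell types also changed between day 14 and day 21, and their values stand beside the falls above. Over all genes tested, 6.16% rose and 8.56% fell in NP lungs, and 3.79% rose and 6.51% fell in vehicle lungs. The marker lists are short and were not tested against these shares. Of 12 markers of transitional epithelium, among them Krt8, 8 fell in NP lungs and 9 in vehicle lungs, and the list summed to 1310 to 1640 CPM in NP lungs, 1360 to 1640 CPM in vehicle lungs and 1910 to 2240 CPM in day 14 lungs. All 12 markers of dividing cells fell in both comparisons, at 63.6 to 140.0 CPM in NP lungs, 90.9 to 166 CPM in vehicle lungs and 277 to 303 CPM in day 14 lungs. NP replicate 3, which stood apart on neutrophil markers, had the 63.6 CPM, and the other NP lungs had 121 to 140.0 CPM. Of 8 fibroblast markers, 5 fell in NP lungs and 4 in vehicle lungs, with 2610 to 3160 CPM in NP lungs, 2850 to 3820 CPM in vehicle lungs and 4300 to 5260 CPM in day 14 lungs. Those that fell were matrix genes, Col1a1, Col1a2, Col3a1 and Lum in both comparisons and Cthrc1 in NP lungs. Pdgfra, Pdgfrb and Dcn passed no test, with log2 fold changes of 0.26, 0.11 and 0.15 in NP lungs and 0.20, 0.12 and 0.22 in vehicle lungs. Of 8 macrophage markers, 1 fell in NP lungs and 2 in vehicle lungs, with 738 to 1220 CPM in NP lungs, 815 to 1150 CPM in vehicle lungs and 1560 to 1920 CPM in day 14 lungs. Spp1 fell in both comparisons and Cd68 in vehicle lungs, and Spp1, at 276 to 1280 CPM over the 12 libraries, made up much of these sums. The receptor Csf1r passed no test, with 0.05 in NP lungs and -0.24 in vehicle lungs. Of 10 alveolar type 2 markers, Sftpa1 and Slc34a2 rose in both comparisons and none fell. Of 8 alveolar type 1 markers, 1 rose and 2 fell in each comparison. That list summed to 5670 to 6110 CPM in NP lungs, 5740 to 6130 CPM in vehicle lungs and 5390 to 6090 CPM in day 14 lungs. Of 8 endothelial markers Tek rose in NP lungs (adjusted p = 0.0158) and none fell. The part of these cell types in the falls of Cdkn1a, Sfn, Psrc1 and the other members was not tested.

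Other genes of the pathway came from lists that share no gene with the 35. For these lists too, 6.16% of all genes tested rose and 8.56% fell in NP lungs. In vehicle lungs 3.79% rose and 6.51% fell. No list was tested against these shares. Of 27 other p53 targets, 10 fell in NP lungs and 5 in vehicle lungs, none rose, and the median log2 fold change was -0.12 in NP lungs and -0.10 in vehicle lungs. The ribosomal protein paralog Rps27l had -0.41 in NP lungs (SE 0.0672, adjusted p = 0.00228) and -0.33 in vehicle lungs (SE 0.0668, adjusted p = 0.00933). Rap2b, a small GTPase, had -0.31 in NP lungs and -0.24 in vehicle lungs, and Ak1, adenylate kinase, had -0.43 in NP lungs (adjusted p = 0.00479) and -0.21 in vehicle lungs (adjusted p = 0.105). Thbs1, a matrix glycoprotein, had -0.89 in NP lungs and -0.93 in vehicle lungs, past the threshold in both.

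Upstream of p53, 3 of 18 kinases, partners and ligases fell in each comparison and none rose. H2ax, the histone variant phosphorylated at DNA breaks, had a log2 fold change of -0.79 in NP lungs (SE 0.0758, adjusted p = 0.000262) and -0.69 in vehicle lungs (SE 0.075, adjusted p = 0.00113). The checkpoint kinases Chek1 and Chek2 had -1.17 and -0.52 in NP lungs and -1.24 and -0.42 in vehicle lungs. Atm, the kinase activated by double-strand breaks, passed no test, with 0.27 in NP lungs (adjusted p = 0.215) and 0.21 in vehicle lungs (adjusted p = 0.361). H2ax and Chek1 are also transcribed in dividing cells, whose markers were lower, and the part of these cells was not tested.

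Of 17 tested members of the BCL-2 and caspase list, 2 rose and 3 fell in NP lungs, and 1 rose and 2 fell in vehicle lungs. Counts this small, beside the shares over all genes given above, are not read as a trait of the list. The death effector Bak1 had a log2 fold change of -0.35 in NP lungs (adjusted p = 0.0103) and -0.46 in vehicle lungs (adjusted p = 0.00377), and its relative Bok had -0.56 in NP lungs (adjusted p = 0.00406) and -0.45 in vehicle lungs (adjusted p = 0.0147). Bad, a BH3-only protein held back by survival signalling, had -0.27 in NP lungs (adjusted p = 0.01) and -0.15 in vehicle lungs (adjusted p = 0.13). Bmf, a BH3-only protein, rose by 0.36 in NP lungs (adjusted p = 0.0165) and 0.40 in vehicle lungs (adjusted p = 0.0145) on the log2 scale.

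Of 16 other CDK inhibitors and G1 regulators, 2 rose and 7 fell in NP lungs, and 1 rose and 6 fell in vehicle lungs. Cdkn1b, the inhibitor p27Kip1 of quiescent cells, rose while Cdkn1a fell, by 0.41 on the log2 scale in NP lungs (SE 0.0646, adjusted p = 0.00178) and 0.41 in vehicle lungs (SE 0.0645, adjusted p = 0.0031). The S phase cyclins Ccne1 and Ccne2 had log2 fold changes of -1.31 and -1.004 in NP lungs and -1.34 and -0.91 in vehicle lungs, and E2f1, their activator, had -0.74 in NP lungs and -0.68 in vehicle lungs. All 3 passed the test in both comparisons.

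Of 28 secretory and marker genes tied to senescence, 2 rose and 10 fell in NP lungs, and 2 rose and 13 fell in vehicle lungs. The median log2 fold change was -0.33 in NP lungs and -0.34 in vehicle lungs. Timp1, an inhibitor of matrix proteases, had -1.28 in NP lungs (SE 0.218, adjusted p = 0.0036) and -1.56 in vehicle lungs (SE 0.219, adjusted p = 0.00275), and the chemokine Ccl8 had -1.21 in NP lungs (adjusted p = 0.000875) and -1.004 in vehicle lungs (adjusted p = 0.00315). Igfbp7, a secreted binding protein, had -0.42 in NP lungs (adjusted p = 0.00355) and -0.28 in vehicle lungs (adjusted p = 0.0311). Igfbp3, which binds insulin-like growth factors, rose by 1.72 in NP lungs (SE 0.255, adjusted p = 0.00237) and 1.80 in vehicle lungs (SE 0.255, adjusted p = 0.00315) on the log2 scale. Lmnb1, lamin B1, is known for its loss in senescent cells and its presence in dividing ones. It had -0.72 in NP lungs (SE 0.0694, adjusted p = 0.000262) and -0.59 in vehicle lungs (SE 0.0687, adjusted p = 0.00139). The falls counted above include Lmnb1, so they do not all have the same meaning for senescence. The list also holds Spp1 and Areg, which stand on the macrophage and transitional epithelium lists above, so these counts are not separate evidence.

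Nanoparticle treatment was compared with vehicle at the same day, the comparison that bears on the particles themselves. None of the 35 members passed the test in edgeR, as for all 17909 genes tested (0%), and DESeq2 called 19 genes, none of them a member. At an unadjusted p under 0.05, 762 genes (4.25%) and 2 members passed. Pmaip1 read 17.5, 19.1, 20.9 and 18.6 CPM in NP lungs and 14.0, 14.1, 18.2 and 15.8 CPM in vehicle lungs, overlapping at vehicle replicate 3, with a log2 fold change of 0.29 (95% interval 0.04 to 0.55, unadjusted p = 0.027 from edgeR's quasi-likelihood test, adjusted p = 0.999). Zmat3 had a log2 fold change of -0.18 (95% interval -0.35 to -0.00, unadjusted p = 0.0475 from the same edgeR test, adjusted p = 0.999). Log2 fold changes of NP over vehicle ran from -0.18 to 0.29 over the members, 22 above 0 and 13 below, with a median of 0.02. Groups did not overlap for 2 members, Ei24 and Perp, both lower in NP lungs, beside 3.55% of all genes in either direction and 1.75% lower.

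What difference between the treatments the data would still allow is given by the intervals. The 95% interval of the log2 fold change reached from 0.115 to 0.639 on either side of the estimate over the 35 members, with a median of 0.232. For Cdkn1a it was -0.16 to 0.39 around 0.12, for Gdf15 -0.14 to 0.44 around 0.15, for Mdm2 -0.14 to 0.15 around 0.01 and for Trp53 -0.15 to 0.16 around 0.01. Cdkn2a was the least resolved, at -0.64 to 0.64 around -0.00. The missed threshold does not show that the treatments acted alike. Of the 17 members called against day 14 in at least 1 treatment group, 14 were called in both, and Ei24, Perp and Ddit4l were called in NP lungs alone, though the difference between the treatments passed no test for any of these 3.

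**Figure D4:**
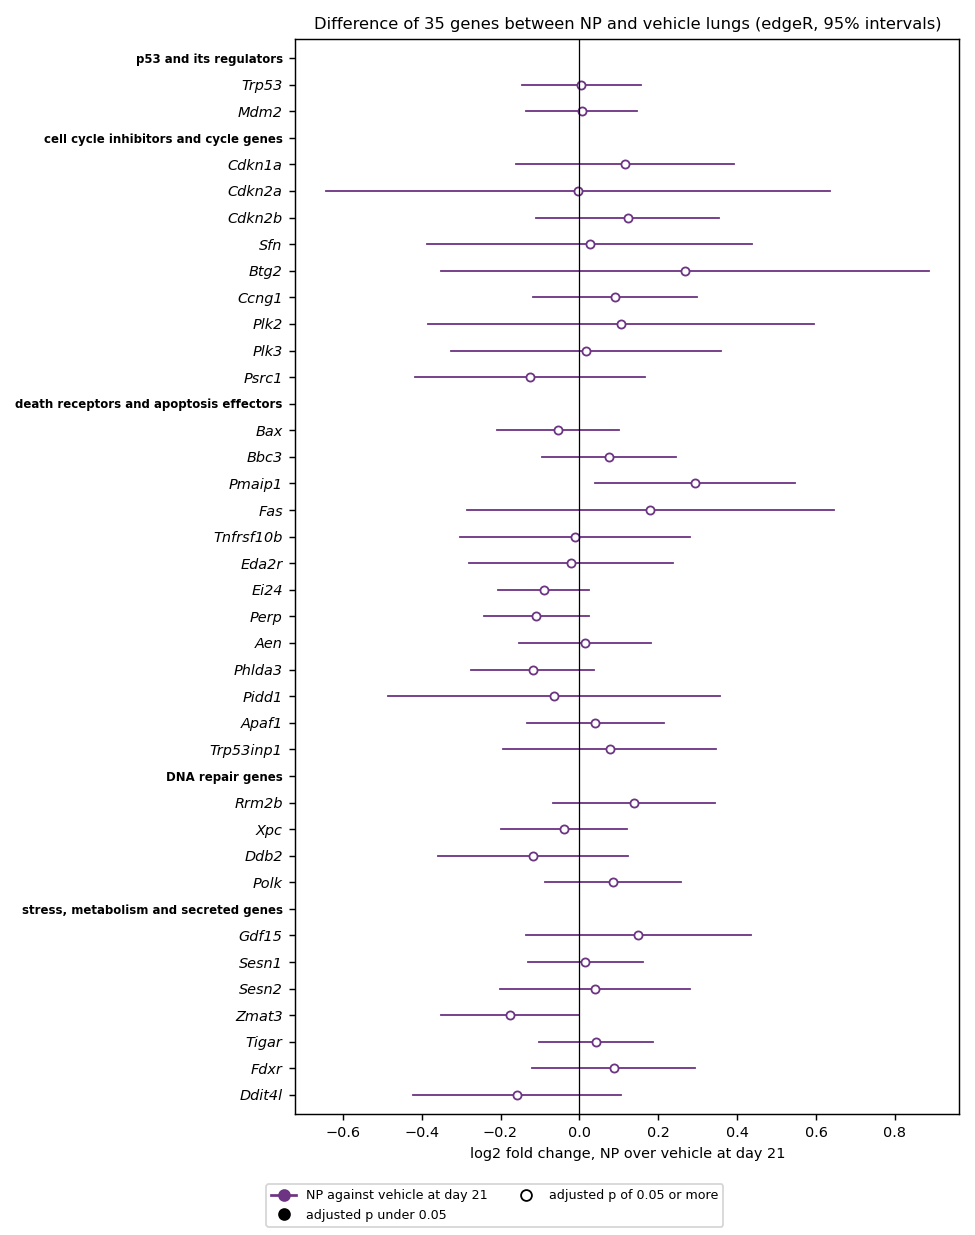
Log2 fold change of NP over vehicle lungs at day 21 with its 95% confidence interval for each of the 35 members (4 libraries per group, edgeR fit of 12 libraries). All estimates lie between -0.18 and 0.29, and the intervals of Pmaip1 and Zmat3 alone leave out 0, neither with an adjusted p under 0.05.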

How the data were processed

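Whole-lung polyA libraries (paired-end reads of 151 bp) were sequenced; STAR 2.7.8a, RSEM 1.3.3, cutadapt 4.8, FastQC 0.11.8, MultiQC 1.20 and the build GRCm38 are named, with no settings, per the submitters' processing notes. Neither the strand setting nor the annotation release is given in the sources used here. Expected counts per gene were deposited as whole numbers, and TPM values were deposited beside them. The deposited FPKM table was not used here.

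Counts were tested with edgeR 4.0.16 in R 4.3.3: filterByExpr by group (minimum count 10, minimum total 15), TMM scaling, 1 robust quasi-likelihood fit of 12 libraries with a group term, two-sided contrasts, and Benjamini-Hochberg adjustment over 17909 genes at a threshold of 0.05. The step was tested on simulated data. The biological coefficient of variation was 0.119. Alternatives were DESeq2 1.42.0, limma 3.58.1 on log2 TPM (pseudocounts 1 and 0.1), other scaling, no filter, 8-library fits, a replicate block and leaving out each library. The 4 reporter rows held 0 counts. No 2 libraries of the same group agreed within sampling noise (chi-square per degree of freedom 8.15 to 33.1). Replicates were separately numbered mice, per the labels. Gene positions came from GENCODE M21 and promoters from RefSeq. Intervals of fold changes come from the edgeR fit and include the spread between mice. The limit of 3 counts covers counting error only.

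The members and the lists were chosen with earlier results of these data known. Named with the value in each library were members called in a comparison, with Trp53, Cdkn1a, Mdm2, Cdkn2a, Cdkn2b and Bax whatever their test, while of each further list up to 4 called genes of smallest adjusted p per comparison were named with their fold changes; Atm, Timp1 in NP lungs, single cell type markers, Pmaip1, Btg2, Plk2 and Fas were described further after their values were seen. A gene counted in these lists is not reported here by name.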

Additional observations from a re-analysis of the deposited data

Results flagged for a closer look

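In 10 of 138 group values one library stood far from the other 3 of its group, and 8 of these were among the 105 values of members. Chance alone flags about 1 in 20. Day 14 replicate 2 was the library in 3 of them: it was lowest for Ccng1, at 262 CPM where the others had 342 to 353 CPM, lowest for Apaf1, at 41.1 CPM where the others had 53.7 to 54.2 CPM, and highest for Fdxr, at 7.46 CPM where the others had 6.51 to 6.62 CPM. In NP lungs, Ei24 was lowest in replicate 4 at 98.0 CPM (others 104 to 105 CPM) and Tigar was lowest in replicate 2 at 13.3 CPM (others 14.8 to 15.1 CPM). In vehicle lungs, replicate 2 was highest for Cdkn2b at 29.9 CPM (others 23.8 to 24.4 CPM) and for Tnfrsf10b at 10.9 CPM (others 9.23 to 9.30 CPM), and replicate 3 was lowest for Bbc3 at 12.2 CPM (others 13.9 to 14.1 CPM). The summed neutrophil markers were 1040 CPM in NP replicate 3 (other NP lungs 82.6 to 91.8 CPM), and the summed red blood cell markers were 3270 CPM in NP replicate 2 (other NP lungs 179 to 593 CPM).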

How the results depend on the processing

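No alternative reversed a call. Of 31 member calls against day 14, 19 stayed past the threshold in every alternative and 12 lost it in at least 1, of which 11 without some library. The NP count of 17 members lay between 13 and 17 with 1 library left out, and was 15 in the 8-library fit and 14 on both TPM scales. The vehicle count of 14 lay between 8 and 15 with 1 library left out, and was 16 with DESeq2 and 12 on both TPM scales. Of these, 2 members rose in the main fit, and 3 rose with DESeq2 and without vehicle replicate 4 or day 14 replicate 2. Only 1 rose without vehicle replicate 1 or 3 or day 14 replicate 3, and on both TPM scales. NP against vehicle called 0 members in all 19 alternatives. Over all genes, calls in NP lungs numbered 2636, against 1672 in the 8-library fit and 1363 to 2936 with a library left out. They numbered 1607 and 1577 on the TPM scales and 3398 with DESeq2. In vehicle lungs 1845 genes were called, against 719 to 2162 with a library left out. There the TPM scales gave 1051 and 995 calls and DESeq2 gave 2685, so the members' count rose with DESeq2 as calls over all genes did. Between NP and vehicle, DESeq2 called 19 genes and edgeR 0. The cause of these shifts was not tested. Same-numbered libraries correlated at -0.074 to 0.148, over 0.1 in 2 of 12 pairs, and 3 of 12 correlated best with their own number. These weak correlations show no clear pairing by number and cannot exclude one, and the labels state none. The fit with a replicate block called 17 members in NP lungs, 14 in vehicle lungs and 0 between them. Depth limits Cdkn2a most, with 19 to 69 counts per library.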
